A study of Mus musculus with 6 samples.

Results

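The distal olfactory receptor cluster of mouse chromosome 10 was examined through the genes numbered Olfr763 to Olfr827. A gene was included when a probe set of the array carried its symbol and no other, which gave 47 receptor genes among 1015 olfactory receptor genes and 19937 genes in all, each represented by 1 probe set. The samples were septa and turbinates of the nose from C57BL6 pups at postnatal day 0, bred from Atf5+/- parents. The Atf5-/- group (called knockout here) and the Atf5+/+ group (wild type) each held 3 samples, and a sample was a pool of 3 pups taken from different litters. The labels do not state which part of the gene was removed. Values of single arrays are given in the order of replicates 1, 2 and 3. Atf5, whose product is a leucine zipper protein that binds DNA, read 9.43, 9.44 and 9.50 in the knockout against 10.54, 10.96 and 10.63 in the wild type, on the log2 scale of the deposited values, a log2 change of -1.25 (SE 0.10, limma adjusted p = 0.000499). Its probe set may lie outside the removed part.

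Olfactory receptors are G protein-coupled receptors in the cilia of olfactory sensory neurons. Each mature neuron generally transcribes a single receptor gene from a single allele, and the unfolded protein response set off by newly made receptor is known to raise translation of Atf5, which takes part in the feedback that keeps the choice stable. In bulk tissue, fewer neurons that express a receptor and less of its RNA per neuron cannot be told apart. A level on an array also depends on the probes, so the levels below are compared between genotypes for the same gene and are not a ranking of abundance between genes.

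The 47 genes lay on chromosome 10 between bases 129011287 and 130211128 of the GRCm38.p6 assembly, a stretch of 1200 kb. Their numbers ran in the order of their positions, and the median gap to the next of them was 17.1 kb. RefSeq lists 65 genes with these numbers. Of the remaining 18, 7 protein-coding genes (Olfr773, Olfr777, Olfr782, Olfr800, Olfr819, Olfr823 and Olfr824) were represented only by probe sets shared with another receptor, and 2 protein-coding genes and 9 pseudogenes had no row with their symbol. Names of the MOR system, which groups mouse receptors into subfamilies by protein sequence, were given by RefSeq for 46 of the 47. The largest subfamilies were MOR114 with 10 genes, MOR110 and MOR111 with 8 each, MOR113 with 5 and MOR108 with 4.

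The sequences below, in sets chosen by subfamily or likeness and not by position, show how alike some receptors are where their coding sequence begins. They matter here because a probe can bind the transcripts of close copies, and because close copies could be compared for their response. Each is the first 50 bases from a start listed in the RefSeq table of starts (GRCm38.p6). It holds 39 genes of the cluster, without Olfr801 of MOR110, and puts the start at a start codon in 38 of them. For Olfr787 the listed start lies within the gene's annotated span, and for the other 37 it is the first base of the gene. Capitals mark bases that differ, position by position, from the first gene of the set. The MOR110 set holds some of the largest decreases and also genes that did not pass:
Olfr805: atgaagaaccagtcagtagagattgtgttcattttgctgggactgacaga
Olfr806: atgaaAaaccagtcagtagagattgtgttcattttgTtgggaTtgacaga
Olfr784: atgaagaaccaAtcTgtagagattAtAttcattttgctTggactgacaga
Olfr811: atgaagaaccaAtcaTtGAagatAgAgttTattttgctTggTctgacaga
Olfr812: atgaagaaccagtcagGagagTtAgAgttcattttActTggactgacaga
Olfr818: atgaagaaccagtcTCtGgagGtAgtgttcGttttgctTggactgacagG
Olfr804: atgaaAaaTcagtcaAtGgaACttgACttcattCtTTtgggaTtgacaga
The 4 genes of MOR111 shown next share 1 probe set of the array, beside the probe set that each has of its own:
Olfr775: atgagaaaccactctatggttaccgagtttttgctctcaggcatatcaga
Olfr776: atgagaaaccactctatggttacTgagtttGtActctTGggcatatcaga
Olfr774: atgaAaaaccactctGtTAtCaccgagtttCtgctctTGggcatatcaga
Olfr787: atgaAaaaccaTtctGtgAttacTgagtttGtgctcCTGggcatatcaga
The last pairs are the closest by this comparison, position by position, with 1 or 2 differing bases. It misses copies whose listed starts are shifted against each other:
Olfr792: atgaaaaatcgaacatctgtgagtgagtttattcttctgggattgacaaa
Olfr798: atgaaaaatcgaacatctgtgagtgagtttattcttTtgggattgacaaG
Olfr825: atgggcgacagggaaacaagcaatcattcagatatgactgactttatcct
Olfr826: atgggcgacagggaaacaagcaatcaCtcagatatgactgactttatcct
Olfr765: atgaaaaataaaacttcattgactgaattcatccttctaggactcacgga
Olfr767: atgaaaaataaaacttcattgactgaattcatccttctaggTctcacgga
Over the 703 pairs of the 38 genes, the median identity of these 50 bases was 77% within a subfamily and 52% between subfamilies. In the 250 bases before the start, aligned end to end with gaps, it was 46.9% within and 44.6% between. The 50 coding bases were compared by position without gaps, so their percentages are not on the same scale as those before the start. The coding part and the bases before it were therefore not compared with each other. Only 3 pairs reached 80% in the bases before the start: Olfr765 and Olfr767 (90.6%), Olfr792 and Olfr798 (84.5%), and Olfr775 and Olfr776 (80%). Olfr814 and Olfr815 came next at 79.9%, although only 17 of their 50 coding bases matched by position. The opening bases of Olfr814 recur further along the 50 bases of Olfr815, so the comparison by position misses this pair.

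Knockout and wild-type arrays were compared to find which of these receptors differ when Atf5 is missing. Of the 47 receptors 18 fell in the knockout and 0 rose by limma (threshold of 0.05 on the p adjusted over all genes), while 29 passed in neither direction. Among all genes tested, 3.24% were called lower and 0.502% higher. At an unadjusted p under 0.05, 37 of the 47 were lower and 0 higher. At that threshold 634 of the 968 other olfactory receptor genes were lower and 4 higher. Of all 19937 genes, 1650 were lower and 1559 higher. The 18 called lower were 38.3% of the cluster, against 34.9% (338) of the 968 other olfactory receptor genes. The estimated change lay below 0 for 45 of the 47, against 94.8% of the other receptors and 47% of all genes. The median log2 change of the 47 was -0.32, next to -0.27 over the other receptors and 0.01 over all genes. Changes ran from -1.03 to 0.11, and 1 receptor was at least 2-fold lower. With the replicate number as a block 22 fell by limma, the 18 and also Olfr808, Olfr811, Olfr821 and Olfr826 (adjusted p = 0.0499, 0.0325, 0.0472 and 0.0185). In that fit 889 of all 19937 genes were called lower, against 645 without the block, and 421 higher, against 100.

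Every knockout array lay below every wild-type array for 37 of the 47 receptors, against 10.3% of all genes, and for 68.6% of the other receptors. Of these 37, 18 were called and 19 were not. The groups overlapped for 9, against 297 of the 968 other receptors and 15733 of all 19937 genes. For Olfr815 every knockout array lay above every wild-type array, as for 7 of the other receptors and 2152 of all genes. Over the 47 genes the array median was 6.70, 6.66 and 6.63 in the knockout against 7.11, 6.99 and 6.86 in the wild type. Over the 968 other receptors it was 7.12, 7.16 and 7.15 in the knockout against 7.53, 7.44 and 7.42 in the wild type. The distance between the 2 sets was nearly the same in both genotypes, -0.48 in the knockout and -0.47 in the wild type, averaged over arrays.

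**Figure D1:**
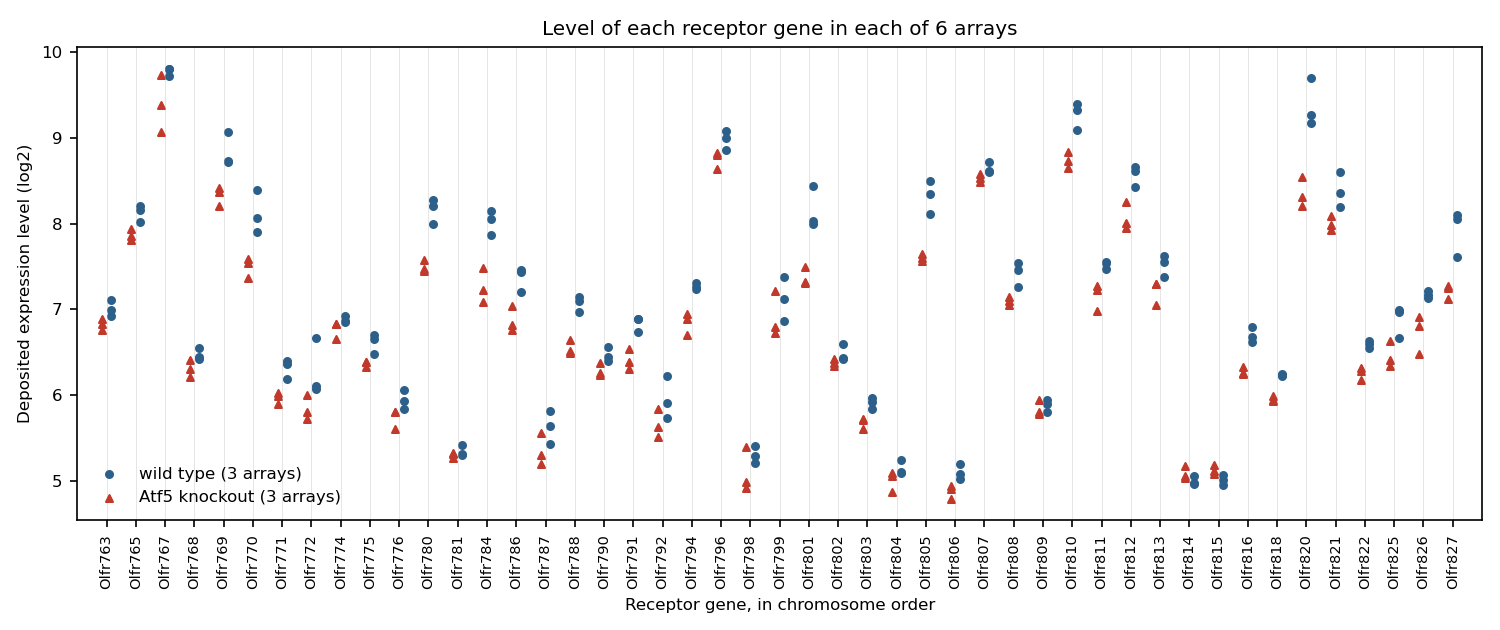
The log2 level of each of the 47 receptor genes is plotted for the 3 knockout arrays (red triangles) and the 3 wild-type arrays (blue circles), with genes in chromosome order on the horizontal axis. All red triangles lie below the blue circles for 37 genes, while Olfr814 and Olfr815, at levels near 5, have a higher mean in the knockout.

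The largest decrease was that of Olfr820, the only MOR116 gene of the cluster, at chr10:130017363-130018301. It read 8.31, 8.55 and 8.20 in the knockout against 9.70, 9.27 and 9.18 in the wild type. The lowest wild-type array was thus well above the highest knockout array. Its log2 change was -1.03 (SE 0.14, adjusted p = 0.00406), which is 2.04-fold lower, with 95% limits of 1.65 and 2.54 (n = 3 arrays in each genotype). Its coding sequence starts as follows.
Olfr820: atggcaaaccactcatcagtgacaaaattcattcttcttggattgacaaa

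The next largest decreases were in MOR110. Olfr801, at chr10:129669561-129670517, read 7.32, 7.49 and 7.31 in the knockout against 8.44, 8.03 and 7.998 in the wild type, a change of -0.78 (SE 0.12, adjusted p = 0.00652). Olfr784, at chr10:129387635-129388822, read 7.48, 7.22 and 7.09 in the knockout against 8.14, 8.05 and 7.87 in the wild type, a change of -0.76 (SE 0.11, adjusted p = 0.00529). Olfr805, at chr10:129722583-129723542, read 7.60, 7.64 and 7.56 in the knockout against 8.49, 8.35 and 8.11 in the wild type, a change of -0.72 (SE 0.09, adjusted p = 0.00357). For these 3 genes the knockout arrays formed a low group without overlap, and the folds were 1.72 (1.43 to 2.06), 1.69 (1.43 to 2.00) and 1.64 (1.42 to 1.90). Olfr812 read 7.94, 8.01 and 8.25 in the knockout against 8.61, 8.66 and 8.43 in the wild type, a smaller decrease of -0.50 (SE 0.10, adjusted p = 0.021). Olfr818 had the smallest decrease among called genes, -0.28 (SE 0.06, adjusted p = 0.0282), with 5.93, 5.94 and 5.99 in the knockout against 6.25, 6.23 and 6.22 in the wild type. The arrays of each genotype lay close together.

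The other 3 genes of MOR110 did not pass. Olfr811 missed the threshold narrowly at -0.36 (SE 0.08, adjusted p = 0.0526), Olfr806 was at -0.22 (SE 0.07) and Olfr804 at -0.14 (SE 0.08). Olfr805 and Olfr806 lie 15.4 kb apart, and 47 of the 50 coding bases printed above are the same in both. Olfr806 stood at 4.91, 4.94 and 4.79 in the knockout against 5.19, 5.08 and 5.02 in the wild type, near the lowest value of the whole table. The difference between the changes of these 2 genes was not tested. In all, 5 of the 8 MOR110 genes fell, with a median of -0.43.

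In MOR114, the largest subfamily of the cluster, 6 of 10 genes fell, and the median change was also -0.43. Olfr780 read 7.44, 7.58 and 7.47 in the knockout against 8.27, 8.20 and 7.99 in the wild type (-0.66, SE 0.08, adjusted p = 0.00307). Olfr770 read 7.54, 7.36 and 7.59 in the knockout against 8.40, 8.07 and 7.91 in the wild type (-0.62, SE 0.12, adjusted p = 0.0206). Olfr769 read 8.37, 8.42 and 8.20 in the knockout against 9.07, 8.73 and 8.72 in the wild type (-0.51, SE 0.10, adjusted p = 0.0286). Wild-type replicate 1 was the highest array for each of these 3 receptors. Olfr791 and Olfr794 fell by 0.43 each, and Olfr771, among the smallest decreases called, went from 6.32 ± 0.12 (SD, n = 3) in the wild type to 5.97 ± 0.07 in the knockout (-0.35, SE 0.07, adjusted p = 0.0372). Olfr772 had as large an estimate, -0.44, but a wide spread: its wild-type arrays read 6.66, 6.07 and 6.11 against 5.72, 6.01 and 5.80 in the knockout, and it did not pass (SE 0.15, adjusted p = 0.181). Olfr768 (-0.16), Olfr781 (-0.04) and Olfr799 (-0.21) did not pass either. Olfr781 and Olfr799 share 46 of the 50 coding bases, although they lie 314 kb apart with many other receptors between them.

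MOR111 had a smaller median change of -0.24, and 2 of its 8 genes fell. At an unadjusted p under 0.05, 6 of the 8 were lower, against 7 of 8 in MOR110 and 8 of 10 in MOR114. Mean wild-type levels ran from 5.63 to 7.37 in MOR111, from 5.10 to 8.57 in MOR110 and from 5.34 to 8.84 in MOR114. The difference between subfamilies was not tested. Olfr788 read 6.65, 6.495 and 6.52 in the knockout against 7.14, 6.97 and 7.10 in the wild type, a change of -0.52 (SE 0.07, adjusted p = 0.00475). Olfr786 read 6.76, 7.04 and 6.82 in the knockout against 7.46, 7.20 and 7.44 in the wild type, a change of -0.49 (SE 0.10, adjusted p = 0.0229). The 4 genes that share a probe set were not called: Olfr774 was at -0.11 (SE 0.07), Olfr775 at -0.25 (SE 0.07), Olfr776 at -0.20 (SE 0.08) and Olfr787 at -0.28 (SE 0.12). Their shared probe set read 8.35, 8.25 and 8.22 in the knockout against 8.75, 8.71 and 8.54 in the wild type, a difference of -0.39 without overlap and without a test. Olfr802 (-0.11) and Olfr803 (-0.23) did not pass.

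In MOR113, 3 of 5 genes fell and changes ran from -0.53 to 0.11. Olfr810 read 8.65, 8.84 and 8.73 in the knockout against 9.33, 9.39 and 9.09 in the wild type (-0.53, SE 0.09, adjusted p = 0.0121). Olfr816 was at -0.42 (SE 0.07, adjusted p = 0.00886) and Olfr822 at -0.34 (SE 0.06, adjusted p = 0.0203). Olfr816 and Olfr822 share 46 of 50 coding bases, lie 163 kb apart, and read 6.28 ± 0.05 and 6.26 ± 0.07 (SD, n = 3) in the knockout against 6.70 ± 0.09 and 6.59 ± 0.04 in the wild type. Olfr814 and Olfr815 were the receptors with estimates above 0, at 0.09 (SE 0.07, adjusted p = 0.579) and 0.11 (SE 0.06, adjusted p = 0.433). Olfr814 read 5.05, 5.18 and 5.03 in the knockout against 5.05, 4.98 and 4.96 in the wild type, and Olfr815 read 5.08, 5.18 and 5.11 against 5.01, 5.07 and 4.95. Neither gene passed the test, and both probe sets were among the dimmest of all genes, at percentiles 0.4 and 0.44 of mean level.

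The 3 receptors of the far end of the cluster belong to MOR210. Olfr827, at chr10:130210160-130211128, read 7.27, 7.25 and 7.12 in the knockout against 8.10, 8.05 and 7.61 in the wild type, and fell by 0.71 (SE 0.12, adjusted p = 0.0124). Olfr825 and Olfr826, which differ at 1 of the 50 coding bases printed, had like estimates of -0.42 (SE 0.11, adjusted p = 0.0714) and -0.44 (SE 0.10, adjusted p = 0.055), and neither passed. Olfr826 read 6.91, 6.81 and 6.48 in the knockout against 7.22, 7.14 and 7.16 in the wild type, so that knockout replicate 3 was the lowest, and it passed with the replicate block (adjusted p = 0.0185).

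No gene of MOR108 (4 genes), MOR112 (2) or MOR269 (2) passed, nor did the single genes of MOR109, MOR115 and MOR117 or Olfr765, which has no MOR name in RefSeq. At an unadjusted p under 0.05, 2 of the 4, 2 of the 2 and 2 of the 2 were lower, as were 3 of the last 4 genes. In MOR108 the changes were -0.30 for Olfr792, -0.21 for Olfr798, -0.04 for Olfr809 (SE 0.07, adjusted p = 0.847) and -0.30 for Olfr813. Olfr808 of MOR112 was at -0.32 (adjusted p = 0.0664) and Olfr790 at -0.18. Olfr796 of MOR269 was bright, at 8.83, 8.64 and 8.81 in the knockout against 9.08, 8.86 and 8.99 in the wild type, and did not pass (-0.22, SE 0.08, adjusted p = 0.21), and Olfr763, the first gene of the cluster by number, was at -0.19. Olfr767 of MOR115 was the brightest probe set of the cluster, and its knockout arrays had the largest SD of any group of 3 among the 47 genes (0.34). It read 9.06, 9.39 and 9.74 in the knockout against 9.81, 9.81 and 9.72 in the wild type, so that knockout replicate 3 lay within the wild-type range (-0.38, SE 0.14, adjusted p = 0.223). Its near copy Olfr765 was at -0.26 (adjusted p = 0.0891), with 7.81, 7.85 and 7.94 in the knockout against 8.20, 8.16 and 8.02 in the wild type. Olfr821 of MOR109 was at -0.38 (adjusted p = 0.0804) and Olfr807 of MOR117 at -0.11 (SE 0.06).

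**Figure D2:**
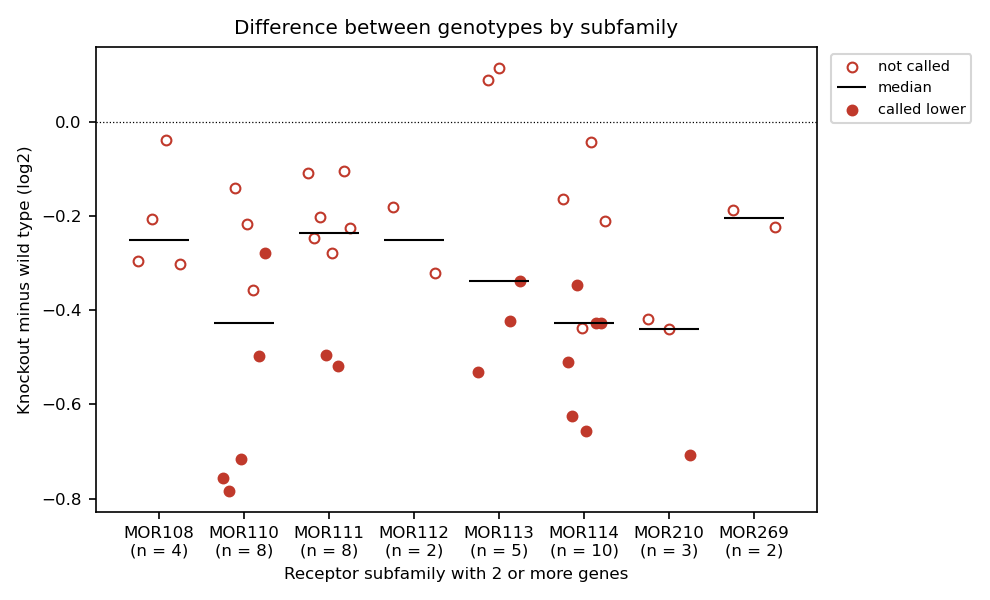
The log2 difference between knockout and wild type is plotted for each gene of the 8 MOR subfamilies with at least 2 genes, filled where the gene was called lower, with a line at the subfamily median. MOR110 and MOR114 have medians of -0.43 and genes on both sides of the threshold, and in MOR113 Olfr814 and Olfr815 lie above 0.

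The decreases were spread along the cluster. Among the first 16 genes, Olfr763 to Olfr787, 6 fell and the median change was -0.31. Among the next 16, Olfr788 to Olfr808, 5 fell with a median of -0.22, and among the last 15, Olfr809 to Olfr827, 7 fell with a median of -0.38. Across the 47 genes, which share the same 6 arrays, the rank correlation (Spearman's rho) of start position with change was -0.09, and that of a gene's change with the change of the next gene was -0.16 over 46 neighbouring pairs. Both are descriptions across genes, which are not independent replicates. As an example of unlike neighbours, Olfr780 at -0.66 is followed by Olfr781 at -0.04 and then by Olfr784 at -0.76.

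**Figure D3:**
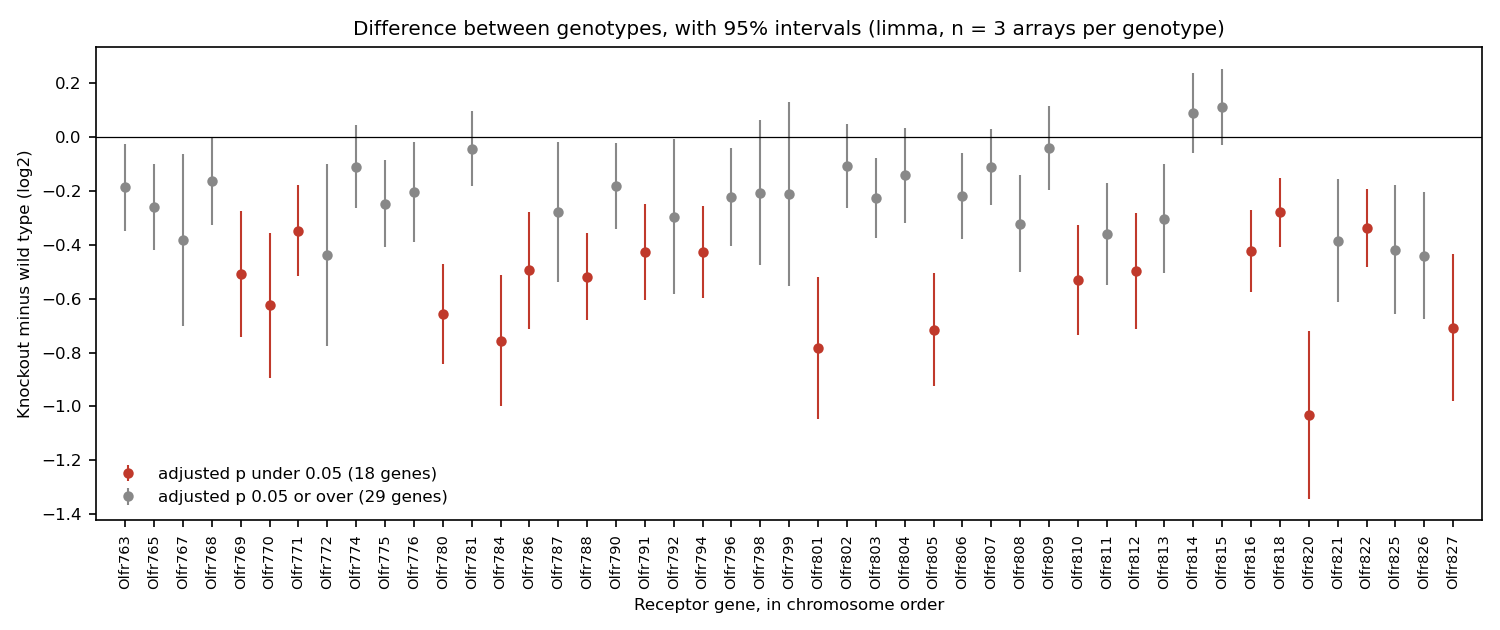
The log2 difference between knockout and wild type is plotted with its 95% interval for the 47 receptors in chromosome order, in red for the 18 called lower and in grey for the 29 that did not pass. Red and grey points are interspersed from Olfr763 to Olfr827, and the lowest point is Olfr820 at -1.03.

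Genes at the borders of the cluster that do not encode receptors were not called. On the near side these were Cd63 (a tetraspanin, 0.09), Rdh5 (a retinol dehydrogenase, 0.08), Bloc1s1 (a subunit of a lysosome biogenesis complex, 0.07), Itga7 (an integrin subunit, 0.10) and Mettl7b (0.08), with adjusted p from 0.537 to 0.722. None of the 7 flanking genes had an unadjusted p under 0.05. On the far side Neurod4, a proneural transcription factor, was at -0.37 (SE 0.22, adjusted p = 0.463), where wild-type replicate 3 alone was high at 7.82 while the other 5 arrays read 6.76 to 6.90, and Tespa1 was at 0.02. Olfr9, the receptor gene next to Olfr763 outside the numbering, was at -0.06 (SE 0.07, adjusted p = 0.76). The 8 measured receptors of chromosome 10 around 79 Mb, outside the cluster, had changes between -0.38 for Olfr1352 and -0.04 for Olfr1351. Of these 8, 0 were called by limma (3 lower at an unadjusted p under 0.05).

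Brightness of the probe set went with the size of the difference. None of the 11 receptors with a mean level over all arrays below 6 was called by limma (5 lower at an unadjusted p under 0.05, median change -0.20), 6 of the 15 between 6 and 7 (-0.34), 8 of the 13 between 7 and 8 (-0.49) and 4 of the 8 at 8 or more (-0.44). In the other receptors the called shares in the same ranges were 5.65%, 27.3%, 39% and 52.3%. Each range holds fewer than 20 receptors of the cluster. Across the 47 genes Spearman's rho of mean level with change was -0.61 and Pearson's r -0.59, as a description over genes that share the arrays and the normalization. Of the cluster, 39 receptors lay below the 30th percentile of all genes in mean level and 1, Olfr767, at or above the median.

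**Figure D4:**
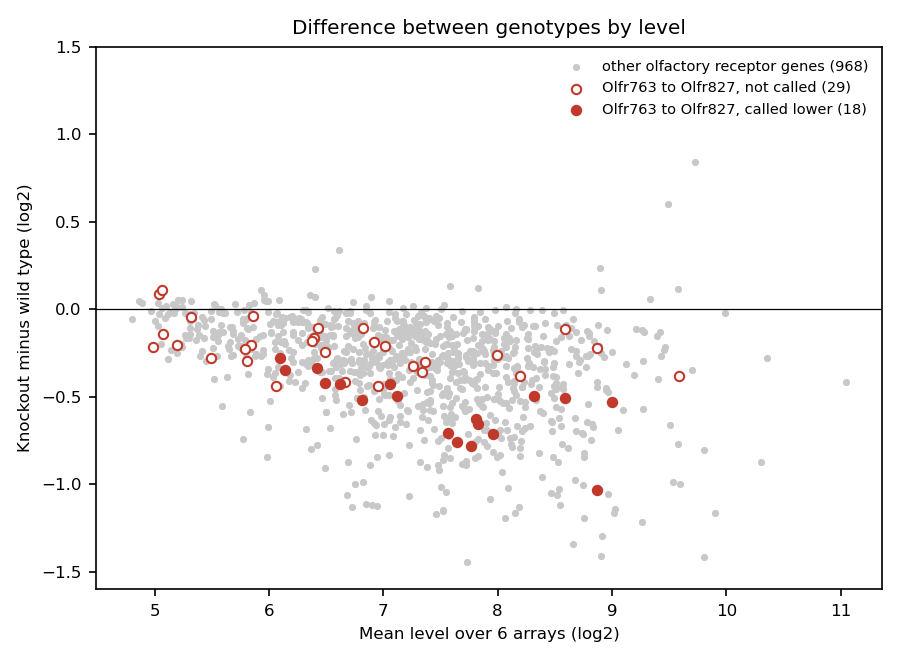
The log2 difference between knockout and wild type is plotted against the mean log2 level over 6 arrays for the 47 receptors of the cluster (red, filled where called lower) and for the 968 other receptor genes (grey). Below a level of 6 no red point is filled, and between 7 and 8 the red points reach down to -0.78.

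Another 9 probe sets carry several symbols of which at least 1 is in the numbered range, and they were described without a test. All 9 had a lower mean in the knockout, by 0.09 to 0.97. For the pair Olfr800 and Olfr777, 1 probe set read 6.51, 6.48 and 6.46 in the knockout against 7.62, 7.46 and 7.28 in the wild type, a difference of -0.97. The second probe set of the same pair differed by only -0.24 and overlapped between groups, at 7.40, 7.24 and 7.38 against 7.75, 7.31 and 7.69. The probe set of Olfr772 and Olfr773 differed by -0.63, at 7.63, 7.52 and 7.27 in the knockout against 8.15, 8.12 and 8.05 in the wild type, without overlap.

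In windows of 250 bases before and 50 after the annotated starts, which here are mostly start codons and need not lie near the start of transcription, 5 motifs were searched on both strands. The homeodomain core TAATTA, a type of site bound by Lhx2, was found in 8 of 39 windows (20.5%), against 18.6% of 944 receptor windows and 5.3% of all windows. The core TAATGA was found in 10 (25.6%, against 28.8% and 9.8%). Receptors with TAATTA had a median change of -0.26 and those without it -0.30. For TAATGA the medians were -0.42 and -0.28. Neither difference was tested, and only 13 of the 18 receptors called lower were among the 39 with a window. In Olfr820 the TAATTA begins at base -155 from the start, here with 8 bases on each side and the motif in capitals.
Olfr820: ttctagtgTAATTAactttcaa
The Ebf core CCCNNGGG and the composite site TTGCATCA of C/EBP and ATF factors were in none of the 39 windows (3.1% and 1.4% of receptor windows, 13.7% and 0.9% of all windows). The core TGACG of cyclic AMP response elements was in 1, that of Olfr791 (2.6%, against 5.6% and 20.8%). A match is only a run of letters in this window. In the 38 genes whose start is a start codon, G and C made up 24% (Olfr805) to 48.8% (Olfr763) of the 250 bases before it. The shares of windows were not adjusted for base composition, and its part in them was not tested.

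Other genes on which receptor signalling depends were read from the same fit. Of 15 measured genes of olfactory transduction 11 fell and none rose, with a median of -0.74. Gnal, the G protein alpha subunit coupled to odorant receptors, was at -2.36, Adcy3, the adenylyl cyclase downstream of it, at -0.74 and Cnga2, a subunit of the cation channel opened by cyclic AMP, at -1.93. Of 3 measured genes for receptor export to the cell surface 2 fell, Rtp1 (-1.48, SE 0.10) and Rtp2 (-0.81, SE 0.10), while Reep1 was at -0.05. Of 19 measured genes for receptor choice and expression 2 fell, Ebf4 (-0.51, SE 0.07) and Atf5 itself. The other 17 did not pass, among them Lhx2 (0.05) and its partner Ldb1 (0.05). Of these 17, 2 were higher at an unadjusted p under 0.05, Lbr (0.23, limma adjusted p = 0.108) and Trim28 (0.18, limma adjusted p = 0.239).

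All 12 markers of mature olfactory neurons were measured, 1 of them below the 30th percentile of level, and 10 fell, with a median of -1.61. All of them except Stoml3, S100a5 and Umodl1 were also in the transduction list above, so the counts of these lists are not separate results. The mean of the 12 markers was 9.20, 9.27 and 9.15 in the knockout against 10.94, 10.62 and 10.78 in the wild type. Of 7 markers of immature neurons 3 fell (median -0.26), and of 5 measured precursor markers 0 were called by limma (1 higher at an unadjusted p under 0.05). Of tissue beside the epithelium, the mean of 3 enamel genes was lower in every knockout array, at 8.60, 7.98 and 9.02 in the knockout against 11.61, 11.35 and 9.41 in the wild type. The mean of 6 skeletal muscle genes overlapped between the genotypes, at 10.24, 10.40 and 10.58 in the knockout against 9.07, 10.33 and 10.21 in the wild type. Wild-type replicate 1 alone was low in the muscle genes. The part of these tissues in the receptor values was not tested. Of the enamel genes 2 fell, and of the muscle genes 0 were called by limma (2 higher at an unadjusted p under 0.05). Of 2 measured genes listed for vomeronasal neurons 1 fell, Gnao1 (-0.39, SE 0.07, limma adjusted p = 0.0159), and Gnai2 (0.05) did not pass. Trpc2, also on that list, was not measured. Lists of sustentacular, horizontal basal, ciliated and bone or cartilage genes had 0 calls by limma, and 1 sustentacular gene was lower at an unadjusted p under 0.05.

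**Figure D5:**
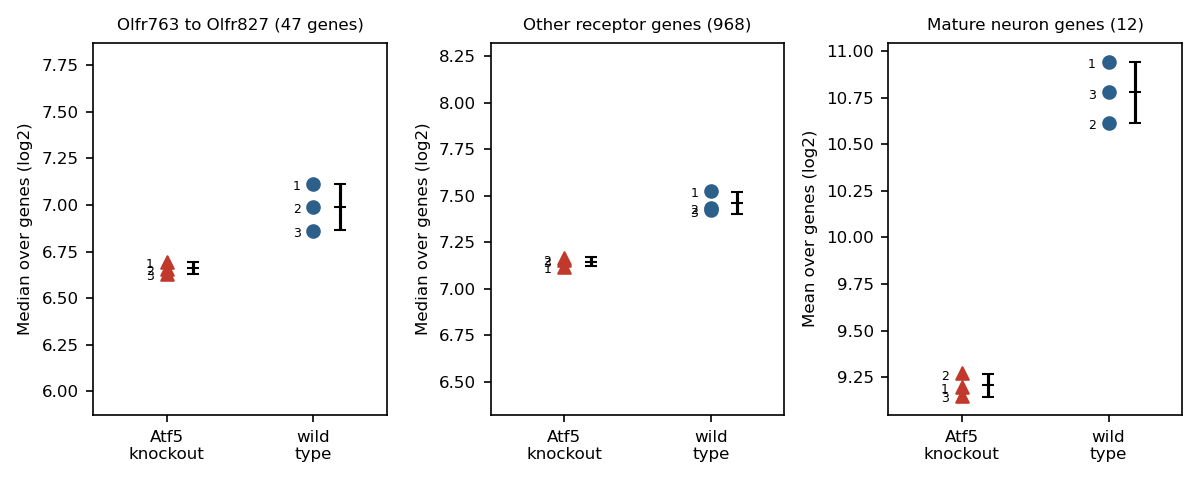
Each point is 1 array, numbered by replicate, with the median over the 47 receptors (left), the median over the 968 other receptors (centre) and the mean over 12 mature neuron genes (right) on log2 axes of equal span; bars are the mean and SD of 3 arrays. The knockout lies below the wild type in each panel, at 6.66 ± 0.03 against 6.99 ± 0.13 for the cluster and at 9.21 ± 0.06 against 10.78 ± 0.16 for the neuron genes.

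Wild-type replicate 1, with the highest median over the cluster, the highest mean of mature neuron genes and the lowest of muscle genes, was the highest wild-type array for 27 of the 47 receptors, and knockout replicate 1 the lowest knockout array for 25. Without wild-type replicate 1 the number of receptors called lower was 9, and without knockout replicate 1 it was 10, while the median change was -0.30 in both. Of the 18 called, 8 were called without any 1 array: Olfr780, Olfr784, Olfr788, Olfr801, Olfr805, Olfr816, Olfr820 and Olfr827 (highest adjusted p = 0.0487). The other 10 lost their call without at least 1 array, 9 of them without wild-type replicate 1 (highest adjusted p = 0.15), 9 without knockout replicate 1 (0.133), 5 without knockout replicate 2 (0.0902) or wild-type replicate 2 (0.115), and 3 without knockout replicate 3 (0.0766) or wild-type replicate 3 (0.0773).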

How the data were processed

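RNA of 6 samples was hybridised to 1-colour whole-transcript arrays after biotin labelling, per the labels' protocols. The authors deposited 1 value per probe set and array, taken here as log2 because they run from 4.50 to 14.7; RMA, affy and limma are named in the submitters' processing notes, without versions or order. RMA as usually defined makes the distributions of arrays nearly alike (array medians 8.67 to 8.72), which would hide a shift of most genes in 1 direction. Group and replicate number came from the titles. No 2 arrays shared more than 12 identical values, and columns of other samples numbered 0.

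Of 34760 rows, 21640 had 1 gene symbol in the platform annotation, 1321 several and 11799 none. The highest-mean probe set was taken per gene (19937 genes). The genotypes were compared with limma 3.58.1 in R 4.3.3 (lmFit, eBayes, 2-sided tests). P-values were adjusted by Benjamini and Hochberg's method across the 19937 genes, and 0.05 was the threshold; SE is moderated and intervals are at 95%. The number of arrays limits the precision. Knockout and wild-type arrays of replicate numbers 1, 2 and 3 deviated together from their genotype's mean (correlations 0.295, 0.122 and 0.234, each over the limit of 0.1 for pairing), although no label states what such arrays have in common.

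Receptors and gene lists were chosen with earlier results of these data known. Named receptors are the 12 largest called decreases, the 5 brightest in the wild type, the 3 largest uncalled decreases, the 3 highest uncalled estimates (2 of them above 0) and the 3 smallest called decreases; others given with array values (Olfr765, Olfr806 and shared probe sets) were chosen after their values were seen. Positions, MOR names and sequences came from RefSeq tables (GRCm38.p6); sequences were aligned with Biopython 1.88. Protein sequences were not used here, so subfamilies took the place of a grouping by protein identity.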

Additional observations from a re-analysis of the deposited data

How the results depend on the processing

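The median change of the 47 receptors was below 0 and moved by less than the spread between arrays in every alternative that kept all 47; filters at the 30th percentile and the median left 8 and 1 of them, with medians of -0.44 and -0.38. No named receptor changed sign. The number of receptors called lower was 9 to 19 with 1 array left out, 22 with the replicate block (which changed no call other than the 4 gained), 12 after quantile normalization, 19 after median centring, 21 with a trended and robust prior and 18 with the mean of probe sets. With the filters on dim genes, 4 of the 8 and 0 of the 1 were called by limma (1 at an unadjusted p under 0.05). Over all genes, 358 and 226 were called lower with these filters, 383 to 584 with 1 array left out and 889 with the replicate block. The number was 584 after quantile normalization, 675 after median centring and 699 with the trended and robust prior. Called higher were 60 with the median filter, 27 to 127 with 1 array left out and 421 with the replicate block. No receptor was called higher in any setting; at an unadjusted p under 0.05, 1 was higher with the trended prior and 0 in the others. Quantile normalization ended the calls of Olfr769, Olfr771, Olfr786, Olfr791, Olfr818 and Olfr822 (highest adjusted p = 0.0787); the cause was not tested. For the 23 named receptors a call was lost in 35 combinations of receptor and setting and gained in 9. Of the 47 probe sets, 39 lay below the 30th percentile of mean level, and what dimness did to the differences was not tested.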
